A study of Homo sapiens with 12 samples.

Results

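The expression of 10 genes of polyamine metabolism was followed in cancer cells that had been evolved under hydroxychloroquine (HCQ), and all 10 were found by symbol among the 28278 genes of the count table. The rule named them by symbol and used no measured value. ODC1, AMD1, SRM and SMS encode enzymes of synthesis, SAT1, SMOX and PAOX encode enzymes of catabolism, and OAZ1, OAZ2 and AZIN1 encode the antizyme system. Cells labelled OVCAR3, which the study describes as serous ovarian cancer of high grade, and cells labelled CCL218, described as colorectal cancer, were each grown on 1 control plate and 1 HCQ plate. HCQ-evolved cells had received 15 pulses of HCQ of 48 h each and then 7 days without drug, and were labelled passage 15. Control cells had no HCQ and were labelled passage 19. Wells of each plate were combined by position into a left (L), middle (M) and right (R) pool, so each of the 4 groups had 3 pools, for 12 libraries of poly(A) RNA. The pools of a group shared a plate and a starting culture, so p-values measure the spread between pools of 1 plate, and plate, passage number and treatment cannot be told apart.

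Polyamines (putrescine, spermidine and spermine) are small, positively charged molecules that bind RNA and DNA and are needed for growth and translation. Putrescine is made from ornithine by ODC1, AMD1 makes the aminopropyl donor from S-adenosylmethionine, SRM makes spermidine and SMS makes spermine. SAT1 acetylates spermidine and spermine, after which PAOX oxidizes the products or they leave the cell, whereas SMOX oxidizes spermine directly and releases hydrogen peroxide. Antizymes bind ODC1 and hand it to the proteasome, and AZIN1 is an inactive relative of ODC1 that binds antizyme in its place. Synthesis is high in dividing cells, including intestinal epithelium, and much of the control lies in translation and protein turnover, which RNA counts do not read. HCQ itself is a weak base that collects in lysosomes and blocks autophagy.

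Libraries held 31147822 to 59965861 counts, and the 10 genes had 57 (PAOX, OVCAR3 control M) to 54276 counts (OAZ1) in a library. Levels are given as CPM, the counts of a gene relative to the library's total after TMM scaling. Pools differed along transcript length. The Spearman correlation across genes between a pool's deviation from the mean of its line and transcript length ran from -0.508 to 0.575 and took both signs within every group. The transcripts of the 10 genes range from 1049 bases (SAT1) to 4196 bases (AZIN1), so changes with the trend in length and GC content removed are given where they alter a call. The libraries labelled OVCAR3 held markers of both tissues, and so did those labelled CCL218. Of 8 ovarian serous markers, 5 in controls and 6 in HCQ-evolved cells were at a mean of 1 CPM or above, with PAX8 at 7.24 to 14.9 CPM, MUC16 at 13.0 to 50.1 CPM, WFDC2 at 11.9 to 42.3 CPM, MSLN at 2.21 to 18.3 CPM, FOLR1 at 2.01 to 6.09 CPM and WT1 at 0.10 to 2.36 CPM, while SOX17 had no count and EMX2 at most 2 counts in a library. Their sum was 59.9 to 104 CPM in OVCAR3 controls and 79.8 to 102 CPM in HCQ-evolved OVCAR3, beside 68.1 to 137 CPM and 108 to 151 CPM in the same groups of CCL218. In CCL218, PAX8 was at 6.41 to 11.2, WT1 at 0.20 to 1.39, FOLR1 at 1.60 to 3.32 and MSLN at 46.5 to 128 CPM. MUC16 was there at 3.66 to 14.3 and WFDC2 at 4.48 to 13.0 CPM, and SOX17 and EMX2 had no count. As a set, the ovarian markers were thus not higher under the OVCAR3 label. Of the colorectal markers in OVCAR3, VIL1, of intestinal epithelium, was at 78.6 to 290.4 CPM and LGALS4 at 133 to 860 CPM. LGR5 was at 13.9 to 31.8, CDX2 at 0.80 to 13.7, GPA33 at 1.73 to 7.22 and CDH17 at 1.71 to 4.52 CPM. KRT20 and CDX1 stood at most at 0.0579 and 0.54 CPM, and were likewise low in CCL218 (at most 0.0669 and 0.44 CPM). Summed over the 8 colorectal markers, of which 6 were at a mean of 1 CPM or above in each group, OVCAR3 control pools were at 933 to 1138 CPM and HCQ-evolved pools at 248 to 663 CPM, while CCL218 control pools were at 1135 to 1613 CPM and HCQ-evolved pools at 1111 to 1160 CPM. The part of this shift in the results was not tested. Fibroblast markers COL1A2, DCN and LUM and leukocyte markers PTPRC and CD3E were at 0.18 CPM or less in every library, while COL1A1 was at 0.60 to 1.81 CPM in OVCAR3 and 1.58 to 3.15 CPM in CCL218, and CD14 at 9.37 to 23.7 CPM and 4.53 to 7.20 CPM. Line names below are the labels.

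No polyamine gene passed the main test, which used no block, in HCQ-evolved cells of either line. With plate position as a block in CCL218, SRM passed lower and SAT1 higher, in a fit that called 14.2% of all genes. Both lines were tested with edgeR's quasi-likelihood test and Benjamini-Hochberg adjustment over all genes at 0.05. In OVCAR3, 0 of the 10 genes passed against 1.86% of the 12204 genes tested, 1 (AZIN1) had an unadjusted p under 0.05 against 16.2% of all genes, and DESeq2 called 0 (9.05% of all genes). In CCL218, 0 of the 10 passed against 6.46% of 12241 genes, 2 (SRM and SAT1) had an unadjusted p under 0.05 against 25.2%, and DESeq2 called SRM (17.7% of all genes). Deviations of pools of the same position were positively correlated in CCL218 (r = 0.541, 0.270 and 0.227). Control M, however, correlated more with HCQ-evolved R (0.471) than with M, so the pairing is uncertain. With position as a block 2 of the 10 genes passed in CCL218, 1 higher and 1 lower, against 14.2% of all genes. In OVCAR3 the block called 81 genes and 0 of the 10. The median log2 fold change of the 10 genes was 0.18 in OVCAR3 and 0.06 in CCL218, beside 0.02 and -0.02 over all genes tested. Control and HCQ-evolved pools did not overlap for 2 of the 10 genes in OVCAR3 and 3 in CCL218, beside 25.7% and 36.0% of all genes.

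**Figure D1:**
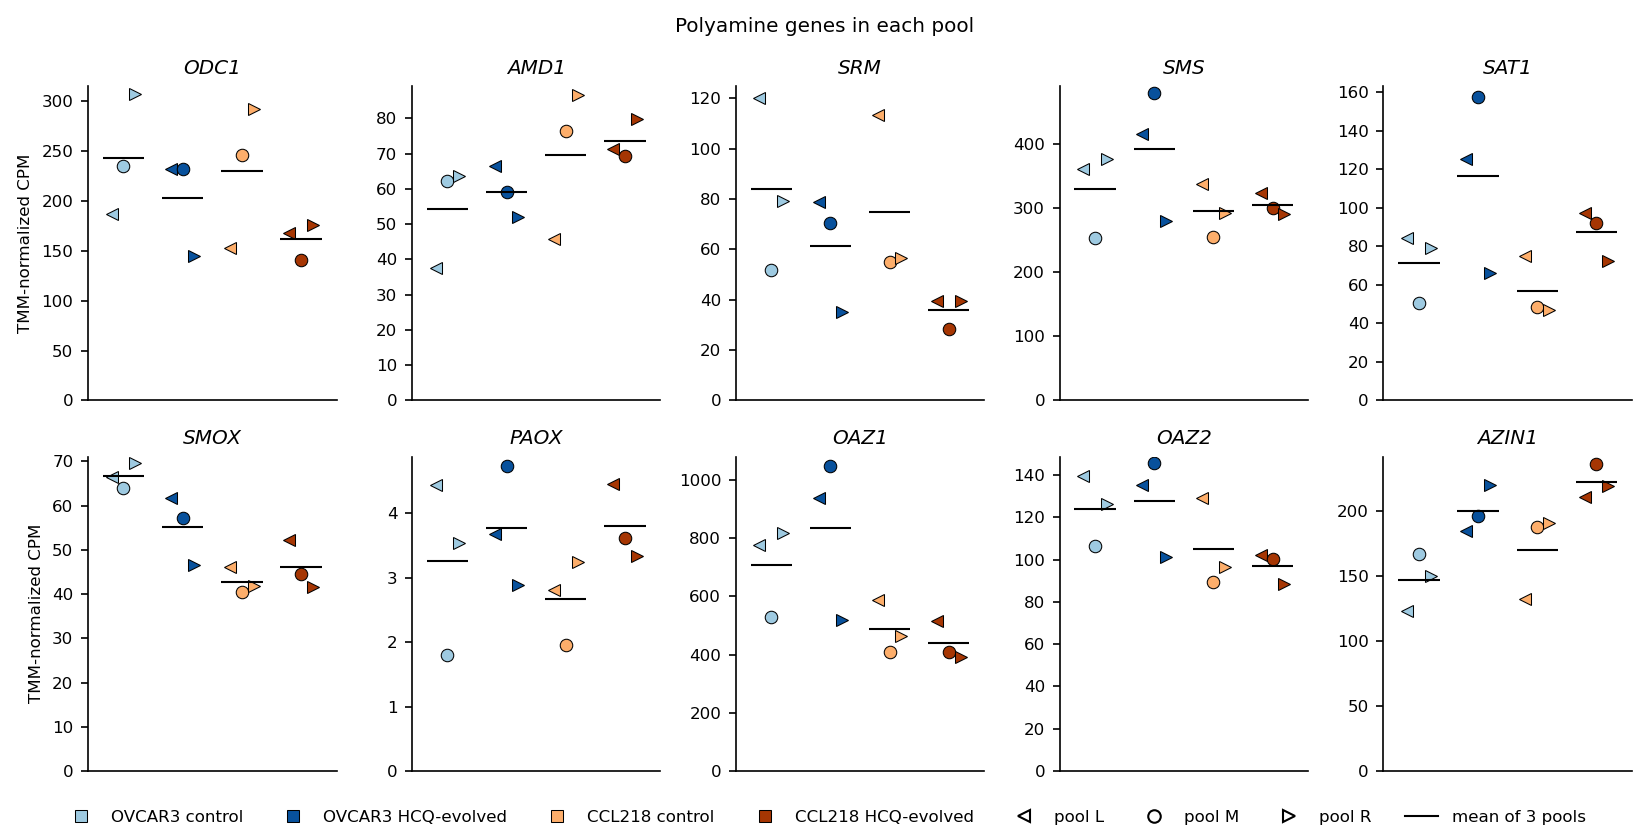
TMM-normalized CPM (y axis, from 0) of the 10 polyamine genes in each of the 12 pools, grouped by line and treatment, with marker shape for plate position and a line for the mean of 3 pools. In CCL218 all 3 HCQ-evolved pools of SRM (28.3 to 39.6 CPM) lie below all 3 control pools (54.8 to 113 CPM), and SMOX lies lower in CCL218 controls (40.5 to 46.0 CPM) than in OVCAR3 controls (63.9 to 69.6 CPM).

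Among the synthesis genes, SRM, the spermidine synthase (chromosome 1, 11054584 to 11060020, minus strand, hg38), had the largest change. In CCL218 controls it was at 113 (L), 54.8 (M) and 56.7 CPM (R), and in HCQ-evolved pools at 39.4, 28.3 and 39.6 CPM. Every HCQ-evolved pool was thus below every control pool, as for 17.3% of all genes, and control L stood apart from the other control pools. The log2 fold change was -1.07 (standard error, SE, 0.31, adjusted p = 0.0921) without a block and -1.0 (SE 0.19, adjusted p = 0.0109) with position as a block. Without control L the log2 fold change was -0.65 with an adjusted p of 0.00832, in a fit that called 25.2% of all genes. In OVCAR3, SRM was at 120, 52.0 and 79.3 CPM in control pools and at 78.9, 70.6 and 35 CPM in HCQ-evolved pools. These pools overlapped, and the log2 fold change was -0.43 (SE 0.38, adjusted p = 0.632).

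ODC1, the ornithine decarboxylase and usual rate-limiting enzyme of synthesis (chromosome 2, 10439968 to 10448327, minus strand), was at 153, 246 and 292 CPM in CCL218 control pools L, M and R and at 168, 140 and 176 CPM in HCQ-evolved pools. Control L lay within the HCQ-evolved range and the other control pools lay above it. The log2 fold change was -0.51 (SE 0.24, adjusted p = 0.229), and -0.47 (adjusted p = 0.127) with position as a block. ODC1 passed in 1 setting, without control L, the control that lay within the HCQ-evolved range. There the log2 fold change was -0.74 (adjusted p = 0.00142), in a fit that called 25.2% of all genes. In OVCAR3 it was at 186, 235 and 306 CPM in control pools and at 232, 232 and 144 CPM in HCQ-evolved pools, with overlap and a log2 fold change of -0.25 (SE 0.27, adjusted p = 0.696). ODC1 overlaps the small nucleolar RNA gene SNORA80B on the same strand, so reads there cannot be assigned with certainty.

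MYC, a transcription factor for which ODC1 is a textbook target, binds the letters CACGTG, and both ODC1 and SRM hold them near a start site. Of the 10 genes, 7 had windows of 300 bases around RefSeq start sites (250 before to 50 after, GRCh38.p14), and ODC1 and SRM were the 2 with a match on either strand. A match was in 2 of the 10 windows of these 7 genes, beside 7.3% of all 35116 windows. The 2 stretches are shown because they belong to the synthesis genes with the lowest fold changes, with each match in capitals, the minus strand as read 5′ to 3′. The ODC1 stretch, chr2:10447983-10448112, lies in the first intron of the canonical transcript and spans a start site of its own, and the SRM stretch, chr1:11060119-11060248, lies upstream of the gene.
ODC1: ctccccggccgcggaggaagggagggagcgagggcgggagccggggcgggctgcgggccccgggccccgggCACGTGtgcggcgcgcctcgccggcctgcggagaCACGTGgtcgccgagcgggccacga
SRM: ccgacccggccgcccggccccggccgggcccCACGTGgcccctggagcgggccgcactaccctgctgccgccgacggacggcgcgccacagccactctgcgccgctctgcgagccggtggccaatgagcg
Counted from the start site, the matches begin at -29 and 6 in ODC1 and at -199 in SRM. A match describes these letters and no binding was measured. MYC RNA, given here after its values were seen, was at 149, 398 and 441 CPM in CCL218 control pools L, M and R and at 271, 240 and 260 CPM in HCQ-evolved pools. In OVCAR3 it was at 163, 357 and 374 CPM in control pools and at 203, 168 and 182 CPM in HCQ-evolved pools. In both lines control L was the lowest pool for MYC, whereas it was the highest pool for SRM. The log2 fold change of MYC was -0.36 (adjusted p = 0.559) in CCL218 and -0.68 (adjusted p = 0.356) in OVCAR3.

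AMD1, which makes the aminopropyl donor (chromosome 6, 110874770 to 110898879, plus strand) stood at 45.9, 76.5 and 86.8 CPM in CCL218 controls and at 71.3, 69.4 and 80.0 CPM in HCQ-evolved pools. Control L was the lowest of the 6 CCL218 pools, while for ODC1 it was the lowest of the controls only. In OVCAR3 control L (37.5 CPM) was also the lowest of 6 pools, the others lying between 52.1 and 66.6 CPM. The log2 fold changes were 0.07 (SE 0.23, adjusted p = 0.858) in CCL218 and 0.13 (SE 0.25, adjusted p = 0.845) in OVCAR3. SMS, the spermine synthase (chromosome X, 21940709 to 21994837, plus strand) stood at 256 to 338 CPM in CCL218 controls and at 291 to 324 CPM in HCQ-evolved pools. In OVCAR3 it was at 254 to 376 CPM in controls and at 281 to 480 CPM in HCQ-evolved pools. Its log2 fold changes were 0.04 (SE 0.14, adjusted p = 0.869) and 0.26 (SE 0.25, adjusted p = 0.658), with overlap in both lines.

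Among the catabolic genes, SAT1 (chromosome X, 23783173 to 23786210, plus strand) had the largest positive change in both lines. In CCL218 it was at 74.8, 48.5 and 46.8 CPM in control pools L, M and R and at 97.6, 92.1 and 72.5 CPM in HCQ-evolved pools. The HCQ-evolved pool was higher at 3 of 3 positions, although the highest control (L) lay above the lowest HCQ-evolved pool (R). The log2 fold change was 0.62 (SE 0.22, adjusted p = 0.138) without a block and 0.64 (SE 0.15, adjusted p = 0.0252) with position as a block. In OVCAR3, SAT1 was at 84.6, 50.6 and 79.3 CPM in controls and at 125, 158 and 66.1 CPM in HCQ-evolved pools. The R pool of HCQ-evolved OVCAR3 lay within the control range while the other HCQ-evolved pools lay above it. This R pool had the highest positive correlation with transcript length (0.575), and whether that bears on SAT1 was not tested. The log2 fold change in OVCAR3 was 0.72 (SE 0.34, adjusted p = 0.352), and 0.70 (adjusted p = 0.0385) with the trend in length and GC content removed, a fit that called 9.09% of genes.

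SMOX, the spermine oxidase (chromosome 20, 4120980 to 4187747, plus strand) stood at 66.4, 63.9 and 69.6 CPM in OVCAR3 control pools and at 61.6, 57.3 and 46.6 CPM in HCQ-evolved pools. Every HCQ-evolved pool lay below every control pool, as for 12.7% of all genes, and the R pool was the lowest. The log2 fold change was -0.26 (SE 0.18, adjusted p = 0.532), so the difference did not pass the test. In CCL218, SMOX was at 46.0, 40.5 and 41.8 CPM in controls and at 52.1, 44.4 and 41.6 CPM in HCQ-evolved pools. These pools overlapped, with a log2 fold change of 0.10 (SE 0.14, adjusted p = 0.668), and position as a block left it at 0.10 (adjusted p = 0.658). The change in CCL218 minus the change in OVCAR3 was 0.38 on the log2 scale (SE 0.21, adjusted p = 0.691, edgeR interaction), which is not a difference past the threshold. Counts per gene read total SMOX RNA and do not tell one allele or transcript form from another.

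PAOX, the peroxisomal oxidase of acetylated polyamines (chromosome 10, 133379261 to 133391694, plus strand), was the least abundant of the 10 genes. In CCL218 it was at 2.81, 1.96 and 3.25 CPM in controls and at 4.46, 3.61 and 3.33 CPM in HCQ-evolved pools, which lay just above the highest control. The log2 fold change was 0.50 (SE 0.24, adjusted p = 0.249), and 0.52 (adjusted p = 0.181) with position as a block. In OVCAR3 it was at 4.44, 1.79 and 3.54 CPM in controls and at 3.67, 4.73 and 2.88 CPM in HCQ-evolved pools, with a log2 fold change of 0.22 (SE 0.36, adjusted p = 0.809).

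**Figure D2:**
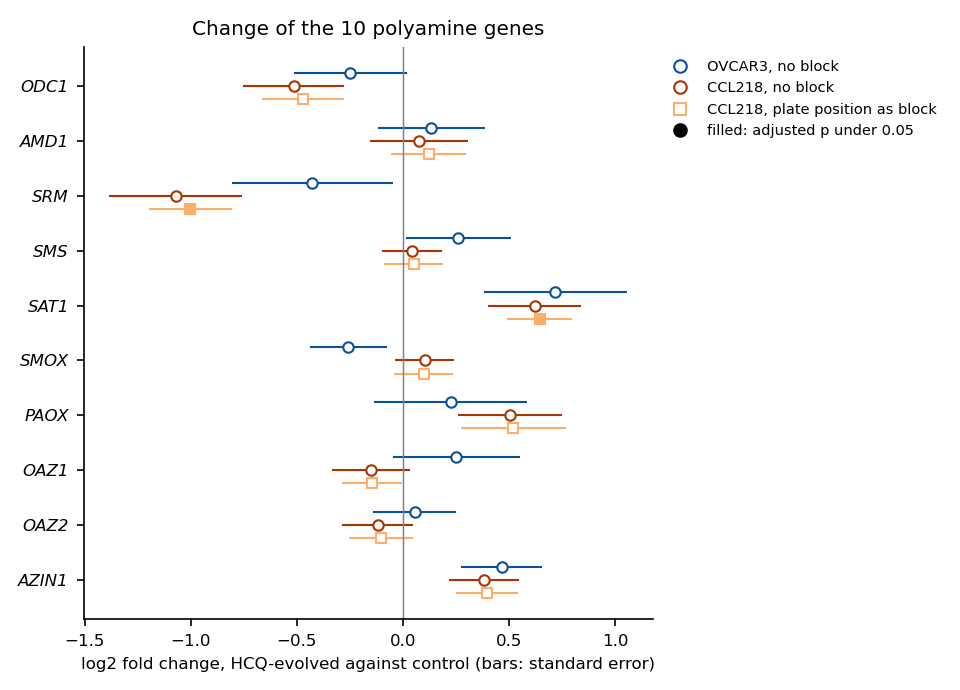
Log2 fold change (x axis) of HCQ-evolved against control pools for the 10 polyamine genes, with bars for the standard error, circles for fits without a block and squares for CCL218 with plate position as a block. Filled symbols mark an adjusted p under 0.05, which occurs for SRM (-1.0) and SAT1 (0.64) in the blocked fit of CCL218 and for no gene without a block.

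In the antizyme system, AZIN1, the antizyme inhibitor (minus strand), was higher in HCQ-evolved pools of both lines without passing the test. In OVCAR3 it was at 123, 167 and 151 CPM in controls and at 185, 196 and 221 CPM in HCQ-evolved pools. In CCL218 it was at 132, 188 and 191 CPM in controls and at 211, 237 and 219 CPM in HCQ-evolved pools. The groups did not overlap in either line, as for 13.0% of all genes (higher) in OVCAR3 and 18.6% in CCL218. The log2 fold changes were 0.46 (SE 0.19, adjusted p = 0.283) and 0.38 (SE 0.16, adjusted p = 0.206). With the trend in length and GC content removed they were 0.31 (adjusted p = 0.0958) and 0.24 (adjusted p = 0.0964), so size and adjusted p both fell. AZIN1 has the longest transcript of the 10 genes, and a part of length in its change was not tested.

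OAZ1, the main antizyme (chromosome 19, 2269509 to 2273490, plus strand) stood at 778, 529 and 818 CPM in OVCAR3 controls and at 937, 1048 and 519 CPM in HCQ-evolved pools. The R pool was the lowest of the 6 and the other HCQ-evolved pools were the highest. In CCL218, OAZ1 was at 588, 409 and 463 CPM in controls and at 516, 410 and 391 CPM in HCQ-evolved pools. The log2 fold changes were 0.25 (SE 0.30, adjusted p = 0.731) in OVCAR3 and -0.15 (SE 0.18, adjusted p = 0.624) in CCL218. OAZ1 overlaps JSRP1 on the opposite strand, and a strand setting for counting is not given in the sources used here. OAZ2, a second antizyme (chromosome 15, 64687573 to 64703281, minus strand), was at 106 to 140 CPM in OVCAR3 controls and at 101 to 146 CPM in HCQ-evolved pools, and at 89.4 to 129 CPM and 88.6 to 102 CPM in CCL218. Its log2 fold changes were 0.06 (SE 0.20, adjusted p = 0.922) and -0.12 (SE 0.17, adjusted p = 0.675).

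Antizyme protein is made only when the ribosome shifts frame at a stop codon, which polyamines promote, and this site is shown because counts per gene do not read it. The 2 sites lie in coding exons at chr19:2271428-2271457 (OAZ1, plus strand) and chr15:64691501-64691530 (OAZ2, minus strand) of hg38, with the sense codon before the stop and the stop itself in capitals.
OAZ1: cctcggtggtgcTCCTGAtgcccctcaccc
OAZ2: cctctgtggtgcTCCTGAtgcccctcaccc
The 30 bases of the 2 genes differed at 1 position, outside the capitals.

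Per length of transcript, OAZ1 was the most abundant of the 10 genes in every group and PAOX the least. In OVCAR3 controls OAZ1 was at 617 ± 136 CPM per kb (SD, n = 3 pools), followed by SMS at 194 ± 39.3 and ODC1 at 97.9 ± 24.4 CPM per kb. SAT1, SRM and OAZ2, at 68.2 ± 17.5, 66.6 ± 27.3 and 64.2 ± 8.64 CPM per kb, overlapped each other, and ODC1 overlapped SAT1. AZIN1 at 35.0 ± 5.24 overlapped SMOX at 30.8 ± 1.32 CPM per kb, while AMD1 at 15.9 ± 4.29 and PAOX at 1.78 ± 0.735 CPM per kb were each apart from their neighbours. In HCQ-evolved CCL218, SAT1 ranked below OAZ1 and SMS (83.4 ± 12.6 CPM per kb) and overlapped ODC1 (65.2 ± 7.52), and SRM (28.4 ± 5.12) lay below OAZ2 and overlapped AMD1 (21.5 ± 1.65), which overlapped SMOX (21.3 ± 2.52 CPM per kb). In CCL218 controls SRM was at 59.5 ± 26.4 CPM per kb and overlapped ODC1 above it (92.9 ± 28.6) and OAZ2 below it (54.3 ± 10.9 CPM per kb).

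**Figure D3:**
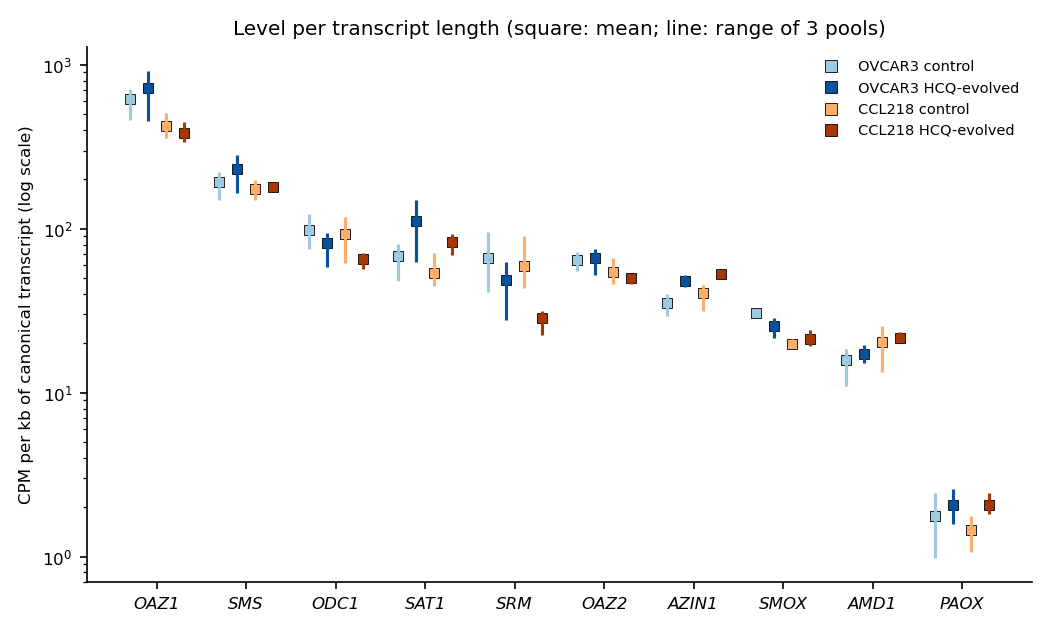
CPM per kb of canonical transcript (y axis, log scale) of the 10 polyamine genes in each group, with squares for the mean and lines for the range of 3 pools, ordered by the level in OVCAR3 controls. OAZ1 lies highest (382 to 727 CPM per kb in the 4 group means) and PAOX lowest (1.46 to 2.08 CPM per kb).

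Control cells of the 2 labels, grown without HCQ, were also compared. The controls of each label came from 1 plate, so line and plate cannot be told apart in this comparison. SMOX was the 1 gene of the 10 that passed, against 3.42% of 12613 genes, and it was lower in CCL218 controls (42.8 ± 2.88 CPM) than in OVCAR3 controls (66.7 ± 2.87 CPM, SD, n = 3 pools each). The log2 difference was -0.64 (SE 0.15, adjusted p = 0.0344, edgeR) and the pools did not overlap, as for 17.8% of genes. It was -0.41 with the length and GC trend removed (adjusted p = 0.0547, in a fit that called 6.04% of genes). With 1 pool left out the log2 difference ran from -0.70 to -0.60 and passed in 4 of the 12 fits. The size thus changed little while the call was lost in most of these fits, some of which left out an HCQ-evolved pool. OAZ1 was the next, at 486 ± 91.6 CPM in CCL218 and 708 ± 156 CPM in OVCAR3 controls, a log2 difference of -0.54 (SE 0.27, adjusted p = 0.385). For HCQ evolution, 0 of the 10 genes differed between lines in the edgeR interaction, against 0.872% of genes, with 0 at an unadjusted p under 0.05 (9.11% of genes) and 0 by DESeq2 (3.67%).

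The pattern of SMOX over the 12 libraries was most like that of GPT (Pearson r = 0.942 of log2 CPM), S100P (0.942), NTMT1 (0.933), TLNRD1 (0.932) and SGK1 (0.932), out of 9243 genes at a mean of 10 CPM or above. These libraries share group differences and depth, and the values are a description. S100P, a calcium-binding protein, averaged 354 CPM in OVCAR3 controls, 204 in HCQ-evolved OVCAR3, 126 in CCL218 controls and 110 CPM in HCQ-evolved CCL218. SGK1, a kinase, averaged 115, 74.2, 42.9 and 44.8 CPM in the same order. PAOX lay below that level and was not compared. Of the other polyamine genes compared, OAZ1 was the most like SMOX (r = 0.782) and AZIN1 the least (-0.537).

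A wider list of 36 polyamine genes covered paralogs, ornithine and S-adenosylmethionine supply, salvage of methylthioadenosine, hypusine formation, transport and terminal oxidation. In CCL218, 4 of its 29 tested genes passed, all higher, beside 6.46% of all genes, and 7 had an unadjusted p under 0.05 (25.2% of all genes). Among the 4, AZIN2 met the count filter only through its HCQ-evolved pools. In OVCAR3, 0 of 28 passed (1.86% of all genes) and 3 had an unadjusted p under 0.05 (16.2%), while DESeq2 called 2 (9.05%), MAOA and SLC12A8. The list's median log2 fold change was 0.08 in CCL218 and -0.11 in OVCAR3. Control and HCQ-evolved pools did not overlap for 10 of its 29 tested genes in CCL218 and 6 of 28 in OVCAR3, beside 36.0% and 25.7% of all genes.

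In CCL218, AOC1, a secreted diamine oxidase that degrades putrescine, rose from 22.4, 16.8 and 15.1 CPM in control pools L, M and R to 35.8, 40.3 and 32.3 CPM. AZIN2, a relative of AZIN1, rose from 0.640, 0.675 and 0.598 CPM to 1.68, 1.42 and 1.44 CPM, and was below the count filter in OVCAR3. Its CCL218 controls held 26, 31 and 28 counts, all below 1 CPM, so it met the filter only through the HCQ-evolved pools. SLC22A3, an organic cation transporter that carries polyamines, rose from 9.50, 7.49 and 5.98 CPM to 13.6, 14.0 and 13.0 CPM. ALDH18A1, a step in ornithine and proline synthesis, rose from 265, 249 and 249 CPM to 370, 375 and 342 CPM. In all 4 genes every HCQ-evolved pool lay above every control pool, as for 18.6% of all genes. For AZIN2 this is no support, because the filter admitted it through those higher pools. The log2 fold changes were 0.99 (AOC1, standard error 0.18, adjusted p = 0.0252), 1.24 (AZIN2, standard error 0.23, adjusted p = 0.0245), 0.82 (SLC22A3, standard error 0.19, adjusted p = 0.0490) and 0.51 (ALDH18A1, standard error 0.11, adjusted p = 0.0401). All 4 also passed with position as a block, but each lost the call when certain single pools were left out, with adjusted p up to 0.149, 0.0979, 0.222 and 0.222. In one fit of all 12 libraries AZIN2 alone of the 4 kept its call, with the same limit from its low counts.

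EIF5A, the protein that carries hypusine made from spermidine, was at 911, 433 and 490 CPM in CCL218 controls and at 412, 331 and 376 CPM in HCQ-evolved pools. All HCQ-evolved pools lay below the controls, as for 17.3% of all genes, and control L stood apart from the other controls. EIF5A passed with position as a block (log2 fold change -0.64, adjusted p = 0.0471) and not without it (-0.72, adjusted p = 0.177), and also with the length and GC trend removed (-0.50, adjusted p = 0.0365). DOHH, which completes hypusine, had a log2 fold change of -0.49 with the block (adjusted p = 0.0564). MTAP, which salvages methylthioadenosine from spermidine and spermine synthesis, was at 175 to 186 CPM in CCL218 controls and at 134 to 140 CPM in HCQ-evolved pools, with a log2 fold change of -0.41 (adjusted p = 0.0661). MTAP passed with DESeq2 (-0.42, adjusted p = 0.000132), with the trend removed (-0.62, 0.0274), with that and the block (-0.60, 0.0169), in one fit of all 12 libraries (-0.41, 0.0475) and without control L (-0.41, 0.00560). SLC12A8, a transporter given a role in polyamine transport, was lower in all HCQ-evolved pools of both lines. Pools lay apart in that direction for 12.7% of all genes in OVCAR3 and 17.3% in CCL218. The log2 fold changes of SLC12A8 were -0.61 in OVCAR3 (adjusted p = 0.153) and -0.49 in CCL218 (adjusted p = 0.0776). SLC12A8 passed in OVCAR3 with DESeq2 (adjusted p = 0.0327) and in one fit of all 12 libraries (0.0223), and in CCL218 with DESeq2 (0.00736), with the trend removed (0.0175), with that and the block (0.0378) and without control L (0.0181). Of all genes in CCL218, DESeq2 called 17.7%, the fit with the trend removed 20.0% and the fit without control L 25.2%. MAT2B, a subunit of the enzyme that makes S-adenosylmethionine, had a log2 fold change of 0.17 (adjusted p = 0.473) in CCL218.

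In OVCAR3, MAOA, a mitochondrial monoamine oxidase, was at 41.3, 61.5 and 49.4 CPM in controls and at 22.0, 21 and 31 CPM in HCQ-evolved pools. Every MAOA value in HCQ-evolved pools lay below every control, as for 12.7% of all genes. Its log2 fold change was -1.02 (SE 0.25, adjusted p = 0.0932), while in CCL218 it was 0.24 (adjusted p = 0.452). MAOA passed in OVCAR3 with DESeq2 (-1.03, adjusted p = 0.00364), with the trend removed (-1.09, 0.00752), with that and the block (-1.10, 0.0311), in one fit of all 12 libraries (-1.04, 0.0147) and without HCQ-evolved R (-1.24, 0.0244). The difference between the lines was 1.28 (adjusted p = 0.0970), and it passed with DESeq2 (adjusted p = 0.00819), with the trend removed (0.00452), with that and the block (0.0415) and without OVCAR3 HCQ-evolved R (0.0340). AOC1 had a log2 fold change of -0.74 (SE 0.58, adjusted p = 0.591) in OVCAR3, where the R pool of HCQ-evolved cells was at 2.38 CPM and the other pools of both groups at 13.1 to 21.9 CPM. The smallest p of the remaining groups in OVCAR3 belonged to AGMAT (log2 fold change -0.58, adjusted p = 0.405), MAT2A (-0.47, 0.568), OAZ3 (-0.27, 0.661), APIP (0.26, 0.710) and DOHH (-0.30, 0.718), each with its adjusted p from edgeR.

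Among 5 MYC-family and oxidative stress regulators, 4 were tested. MYCL was the 1 that passed in OVCAR3, against 1.86% of all genes. It fell there from 16.4, 24.3 and 25.7 CPM in controls to 6.89, 7.22 and 3.99 CPM in HCQ-evolved pools (log2 fold change -1.87, standard error 0.30, adjusted p = 0.0309). With position as a block the adjusted p was 0.0693, and it reached 0.170 when 1 pool was left out. In CCL218 its log2 fold change was -0.28 (adjusted p = 0.397), and the difference between lines was 1.60 (adjusted p = 0.0793), which passed with DESeq2 (adjusted p = 0.00237) and with the trend removed (0.0497). MAX, the partner of MYC, had a log2 fold change of -0.25 (adjusted p = 0.286) in CCL218. In control cells, 1 of the 29 tested wider genes passed between labels, against 3.42% of all genes. This was SLC3A2, part of an amino acid transporter and named after its values were seen. It was at 119 ± 6.92 CPM in CCL218 and 221 ± 21.2 CPM in OVCAR3 (SD, n = 3 pools, log2 difference -0.89, adjusted p = 0.00358), and line and plate cannot be told apart.

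**Figure D4:**
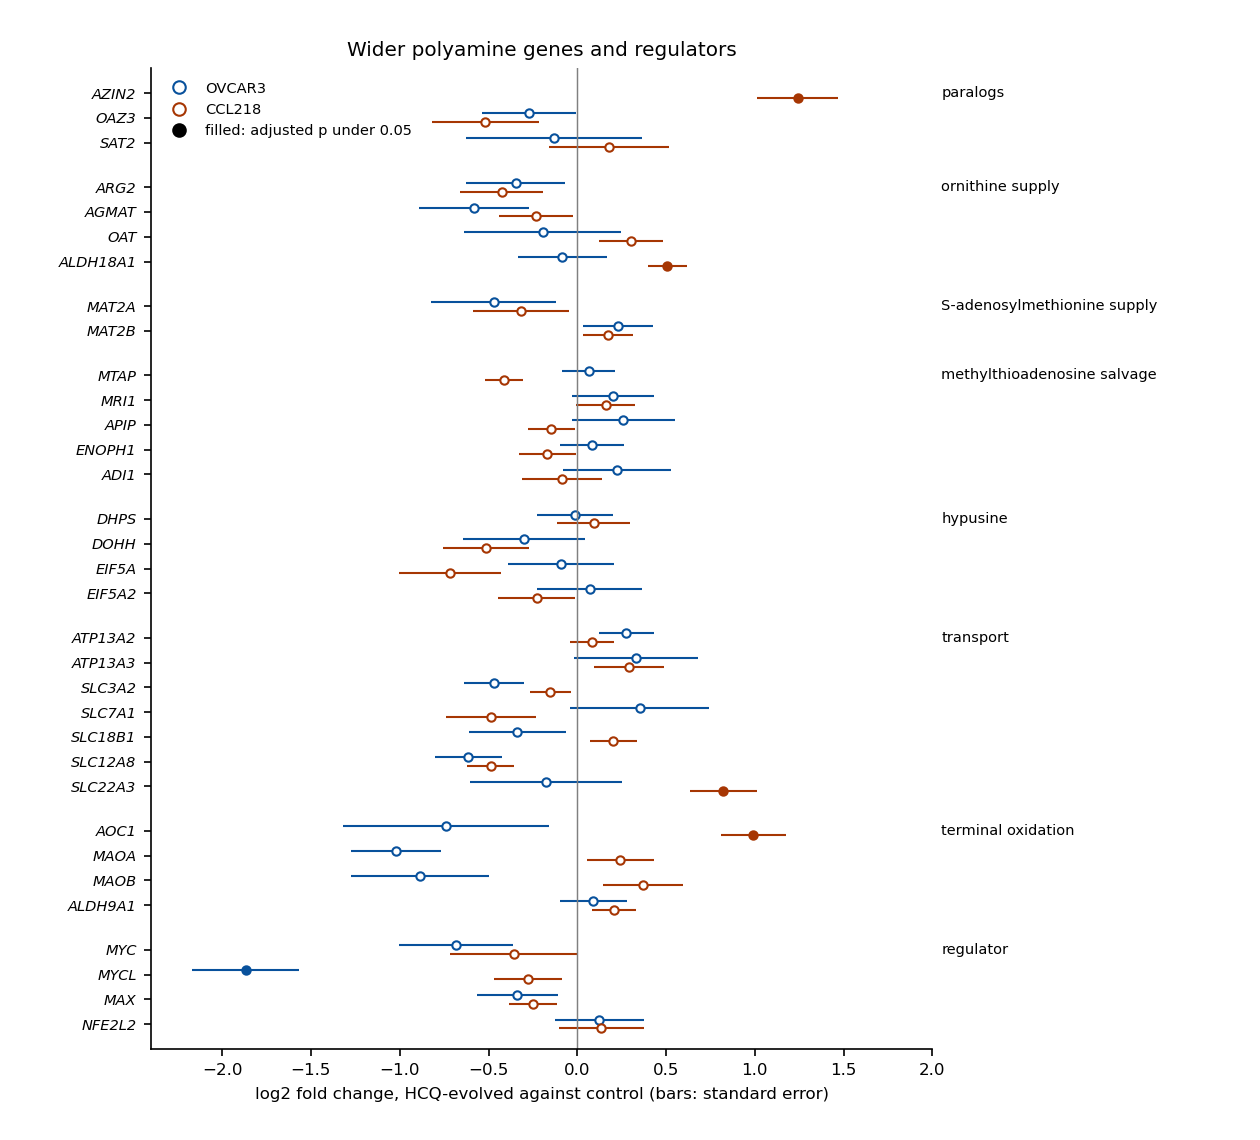
Log2 fold change (x axis, bars for the standard error) of HCQ-evolved against control pools for the tested wider polyamine genes and regulators in both lines, grouped by role. Filled circles mark an adjusted p under 0.05, which are AZIN2, ALDH18A1, SLC22A3 and AOC1 in CCL218 (all higher) and MYCL in OVCAR3 (lower).

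SRM, SAT1, ODC1 and SMOX were followed through every setting in CCL218. SRM passed with DESeq2, without a count filter, with the block, with the length and GC trend removed and without control L, and its log2 fold change ran from -0.65 to -1.25. SAT1 passed with the block, with the trend removed (20.0% of all genes did) and without control L, with log2 fold changes from 0.50 to 0.87. SMOX did not pass in any setting, with values from 0.01 to 0.20.

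**Figure D5:**
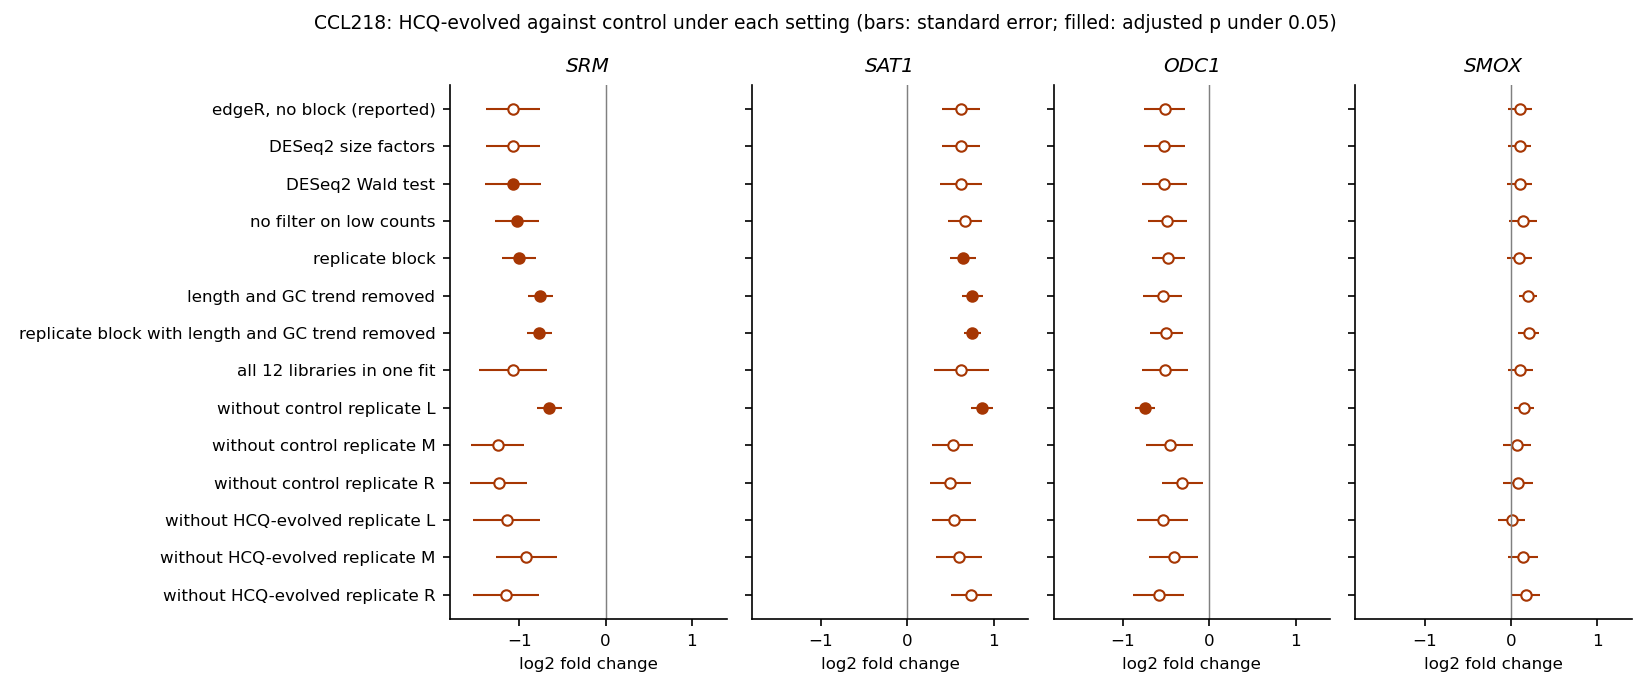
Log2 fold change (x axis, bars for the standard error) of SRM, SAT1, ODC1 and SMOX in CCL218 under each setting (y axis), with filled circles for an adjusted p under 0.05. SRM stays below 0 and SAT1 above 0 in every setting shown, and SMOX stays near 0. ODC1 passes only without control L (-0.74), in a fit that called 25.2% of all genes.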

How the data were processed

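Poly(A) RNA of 12 pools was sequenced. Per the paper's methods and the labels, the authors aligned reads to hg38 with STAR, removed duplicates with RmDup and deposited raw counts per gene from featureCounts. Of entries of 1 to 4 counts 78.9% were even, as when mates are counted apart. Counts were scaled by TMM, genes at 1 CPM or above in 3 or more libraries were kept, and each line was fitted alone with edgeR 4.0.16 (quasi-likelihood test, R 4.3.3, Benjamini-Hochberg adjustment, threshold 0.05). Lines were compared in 1 fit of all 12 libraries. Alternatives were DESeq2 1.42.0, its size factors, no filter, position as a block, an offset for length and GC content (GENCODE 44; 90.1% of symbols matched), all libraries in one fit and leaving out each pool. Scripts were tested on simulated data. Across genes, CCL218 pools of equal position correlated after group means were removed (r = 0.541, 0.270 and 0.227), so the block is given beside CCL218 results. Named wider genes passed in a line or had the smallest p of their group in a line. The genes and lists were chosen with earlier results of these data known.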

Additional observations from a re-analysis of the deposited data

Results flagged for a closer look

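MAOB, a mitochondrial monoamine oxidase of the wider list, was noted because its pools lay apart in opposite directions in the 2 lines. It was at 2.01, 1.26 and 1.89 CPM in OVCAR3 controls and at 1.14, 0.50 and 1.11 CPM in HCQ-evolved pools, and at 1.35, 1.66 and 1.92 CPM in CCL218 controls and at 2.38, 2.08 and 1.94 CPM in HCQ-evolved pools. Pools lay apart in the lower direction for 12.7% of all genes in OVCAR3, and in the higher direction for 18.6% in CCL218. Levels were near the 1 CPM filter, with 26 counts in HCQ-evolved M of OVCAR3, and the CCL218 groups were parted only by 1.92 against 1.94 CPM. The change in CCL218 minus the change in OVCAR3 was 1.28 on the log2 scale (adjusted p = 0.317, edgeR interaction), and neither line passed alone.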

How the results depend on the processing

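Each group had 3 pools from 1 plate, pools deviated along transcript length, and counts of genes moved when 1 pool was left out. DESeq2's size factors kept every count of genes within 1.5 times. In OVCAR3, 227 genes passed as reported, 1105 with DESeq2, 549 with no filter, 1071 with the length and GC trend removed, 447 with that trend removed and position as a block, 1165 with all 12 libraries in one fit, and 3 to 557 with 1 pool left out. Of the polyamine genes in OVCAR3, 0 passed as reported and 1 with the trend removed (SAT1), and 0 with any pool left out. In CCL218, 791 genes passed as reported, 2172 with DESeq2, 1744 with position as a block, 2362 with the trend removed, 2076 with both, and 102 to 3047 with 1 pool left out (3047 without control L). Polyamine genes that passed in CCL218 numbered 1 with DESeq2, 1 with no filter, 2 with the block, 2 with the trend removed, 2 with both, and 0 to 3 with 1 pool left out. Between lines, 110 changes differed as reported, 463 with DESeq2, 35 with the block, 469 with the trend removed and 38 to 212 with 1 pool left out, and polyamine genes stayed at 0. Between controls, 431 genes differed as reported, 925 with DESeq2, 733 with the trend removed, 803 with both and 181 to 790 with 1 pool left out. SMOX, the 1 polyamine gene among them, left 0 with no filter, 0 with the trend removed, 0 with both and 0 to 1 with 1 pool left out. The cause of these shifts was not tested.

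In OVCAR3, pools of equal position did not deviate together (r = 0.422, -0.692 and -0.500), so the pools share a number only. With a block for position there, 81 genes passed beside 227 without it, and no polyamine gene, and not every pool correlated best with its own number. The same held in CCL218, where control M correlated more with HCQ-evolved R (0.471) than with M (0.270). Beside SRM, SAT1, EIF5A and MYCL, the pairing changed no call among the named genes within a line.

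Directions that turned belonged to log2 values that had not passed. With the trend removed, without and with the block, the values were -0.0836 and -0.0891 (MTAP, OVCAR3), 0.0671 and 0.0813 (EIF5A, OVCAR3), -0.0398 and -0.0179 (AMD1, CCL218), 0.0462 and 0.0622 (SAT1, difference between lines, and 0.00280 with the block alone), 0.28 and 0.28 (SRM, between controls) and 0.11 and 0.10 (PAOX, between controls). With 1 pool left out, the values ran in OVCAR3 from -0.0922 to 0.26 (AMD1), -0.0628 to 0.48 (PAOX), -0.0407 to 0.19 (OAZ2), -0.25 to 0.15 (ALDH18A1), -0.30 to 0.22 (EIF5A) and -0.41 to 0.21 (SLC22A3). In CCL218 they ran from -0.16 to 0.26 (AMD1), -0.0470 to 0.14 (SMS), -0.28 to 0.00195 (OAZ1) and -0.22 to 0.0495 (OAZ2). Differences between lines ran from -0.27 to 0.17 (AMD1), -0.22 to 0.0470 (AZIN1), -0.29 to 0.0230 (OAZ2) and -0.36 to 0.20 (SAT1), and those between controls from -0.28 to 0.15 (ODC1) and -0.59 to 0.19 (SRM). In 592 values with 1 pool left out and 501 under the other settings, call and direction held.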
